A study of Homo sapiens with 9 samples.

Results

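Mitosis genes, 51 of the 58037 genes in the deposited expression table, were followed through the libraries of a study that targeted EZH2 in triple-negative breast cancer cells. The members were a named list: cyclins A2 and B with CDK1 and its CDC25 phosphatases, mitotic kinases, the chromosomal passenger complex, the spindle checkpoint, anaphase regulators, centromere and kinetochore proteins, kinesins, spindle assembly factors, cytokinesis proteins, chromosome structure proteins, and the transcription factor FOXM1. All 51 were found by symbol. RNA sequencing of total RNA covered the MDA-MB-231 line, the MDA-MB-436 line and the MDA-MB-453 line, each as 1 library labelled GSK343, 1 labelled shEZH2 and 1 control, which gives 3 libraries per group and 9 in all. EZH2 is the enzyme of Polycomb repressive complex 2 that methylates lysine 27 of histone H3; GSK343 blocks its activity, and shEZH2 denotes a short hairpin RNA against its mRNA. The sample labels give no treatment for the controls while the column headers call them shControl, so it is not settled here whether they carried a control hairpin. The labels state no dose, no duration of treatment and no number of clones. Lines served as the replicates of each group, and nothing says how separate the cultures of a line were. P-values measure only how far the differences vary between lines, except in the test between lines described further below.

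Mitosis genes are switched on together as cells pass from S phase into G2 and mitosis, by the MYB-MuvB and FOXM1 transcription factor complexes that bind promoters carrying a cell cycle homology region (CHR) and CCAAT boxes. Their products condense the chromosomes, build the spindle, hold anaphase back until every kinetochore is attached, and then cut the cell apart. In a bulk culture the summed level of these transcripts is known to follow the share of cells that are in G2 and mitosis. A smaller share of such cells and less transcript per cell cannot be told apart in these data.

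The deposited values are RPKM, reads scaled to gene length and library depth. As recovered from the RPKM themselves, they rest on 14757043 to 18283426 reads per library. Values in a row are ordered as the MDA-MB-231 library, the MDA-MB-436 library and the MDA-MB-453 library. EZH2 itself went against the labels. Its RPKM was 5.77, 7.53 and 7.99 in the GSK343-labelled libraries, 16.4, 37.4 and 16.2 in the shEZH2-labelled libraries, and 27.4, 38.9 and 42.3 in the controls. The log2 fold change against control was -2.19 ± 0.47 under the GSK343 label (limma, adjusted p = 0.000424) and -0.70 ± 0.47 under the shEZH2 label (adjusted p = 0.0597), where ± is the half-width of a 95% confidence interval, as throughout. The transcript was thus lower under the inhibitor's label than under the hairpin's, and in MDA-MB-436 the shEZH2-labelled library stood level with its control (log2 ratio -0.06). The groups are therefore named by their labels, and treated means labelled GSK343 or shEZH2, whatever the EZH2 level. Luminal markers also did not set MDA-MB-453, a line of luminal type, above the others: the summed RPKM of 14 luminal breast genes was 235.7, 271.7 and 202.6 in the GSK343-labelled, shEZH2-labelled and control libraries of MDA-MB-453. Those sums lay between the sums of the other lines in each condition. Whether these libraries come from MDA-MB-453 was not settled here, and the calls are also given without them.

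Under the GSK343 label 9 of the 51 mitosis genes fell and 0 rose, where 1.6% of the 12965 genes tested fell and 6.25% rose. The 9 were DLGAP5, PLK1, ANLN, KIF20A, SPC25, ECT2, PLK4, CCNA2 and CDCA8, and their decreases ran from 1.45-fold to 1.71-fold. At an unadjusted p under 0.05, 23 members were lower and 0 higher, against 8.24% and 17.6% of all genes tested. The fitted log2 fold change lay below zero for 46 of 51 members, against 42.8% of all genes tested, and its median was -0.34, against 0.06 over all genes. In 32 members the GSK343-labelled library was below the control in 3 of 3 lines, a count that was not made over all genes. Fold changes are those of RPKM + 1 from limma with the cell line as a block, and calls are at an adjusted p under 0.05 over all genes tested (Benjamini-Hochberg). The count was 0 without the block and 0 without the filter on low values, and it moved when single libraries were left out. Most counts from such alternative fits, here and below, stand without the share of all genes called in the same fit. They do not show whether members lost calls more often than other genes. It was 1 without the MDA-MB-453 control, 1 without that line's GSK343-labelled library and 1 without the GSK343-labelled MDA-MB-231 library. It was 2 without the GSK343-labelled MDA-MB-436 library, and 5 without that line's control or its shEZH2-labelled library. Leaving out a whole line gave 3 without MDA-MB-231, 3 without MDA-MB-436 and 0 without MDA-MB-453, where 6 of all genes tested were still called lower. Without MDA-MB-453 PLK1 was at -0.94 ± 0.35 (limma adjusted p = 0.0653) and KIF20A at -0.67, while DLGAP5 (-0.53), ANLN (-0.52), CCNA2 (-0.52), CDCA8 (-0.52), SPC25 (-0.49), ECT2 (-0.48) and PLK4 (-0.43) were closer to zero.

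Under the shEZH2 label 1 of the 51 members fell, the kinetochore gene SPC25, and 0 rose, where 2.28% of all genes tested fell and 8.35% rose. At an unadjusted p under 0.05, 11 members were lower and 0 higher, against 9.36% and 19.2% of all genes tested. The fitted change was below zero for 38 of 51 members, against 43.7% of all genes tested, with a median of -0.16, against 0.05 over all genes. Only 13 members were below the control in 3 of 3 lines, a count that was not made over all genes. The count was 0 without the block and 0 without the filter on low values. It was 0 without the MDA-MB-453 control and without any single one of the 3 shEZH2-labelled libraries, 2 without the GSK343-labelled MDA-MB-453 library, and 4 without the MDA-MB-231 control. Without the MDA-MB-436 control SPC25 lost its call (-0.63, limma adjusted p = 0.0516), SMC4 was called lower (-0.60, adjusted p = 0.0464) and UBE2C higher (0.56, adjusted p = 0.042). It was 0 without the MDA-MB-231 line and 0 without the MDA-MB-453 line, where SPC25 was at -0.50 ± 0.44 (adjusted p = 0.22). Both comparisons share the control libraries, so an error in a control library enters both.

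Both treated groups were also set together against control, to ask which members differ in the mean of the treated groups. Here 10 of the 51 fell, the 9 named above and the kinesin KIF23, and 0 rose, where 4.3% of all genes tested fell and 12.2% rose. A change in 1 treated group can carry this mean, so a call does not show a fall under both labels. Of the 10, only SPC25 was also called under the shEZH2 label, and KIF23 was called under neither label alone. The unadjusted p was under 0.05 for 21 members, all of them lower (against 11.1% of all genes lower and 21.8% higher). The fitted change was below zero for 43 of 51, against 43.1% of all genes tested (median -0.27, against 0.05 over all genes). The count was 0 without the block and 0 without the filter on low values. It was 1 without the MDA-MB-453 control, leaving PLK1, and 5 without the MDA-MB-436 control, where UBE2C was also called higher (0.48, limma adjusted p = 0.0426). It was 4 without the GSK343-labelled MDA-MB-453 library, without the shEZH2-labelled MDA-MB-436 library or without the whole MDA-MB-436 line, and 3 without the shEZH2-labelled MDA-MB-453 library. Without all 3 libraries labelled MDA-MB-453 PLK1 alone was called (-0.76 ± 0.30, adjusted p = 0.046), and the log2 fold changes of the other 9 lay between -0.32 and -0.49. Of the 10 calls, 3 were lost with 1 particular library and no other: DLGAP5 (-0.37, adjusted p = 0.0932) and SPC25 (-0.49, adjusted p = 0.0868) without the MDA-MB-453 control, and PLK1 (-0.51, adjusted p = 0.0596) without the MDA-MB-436 control.

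**Figure D1:**
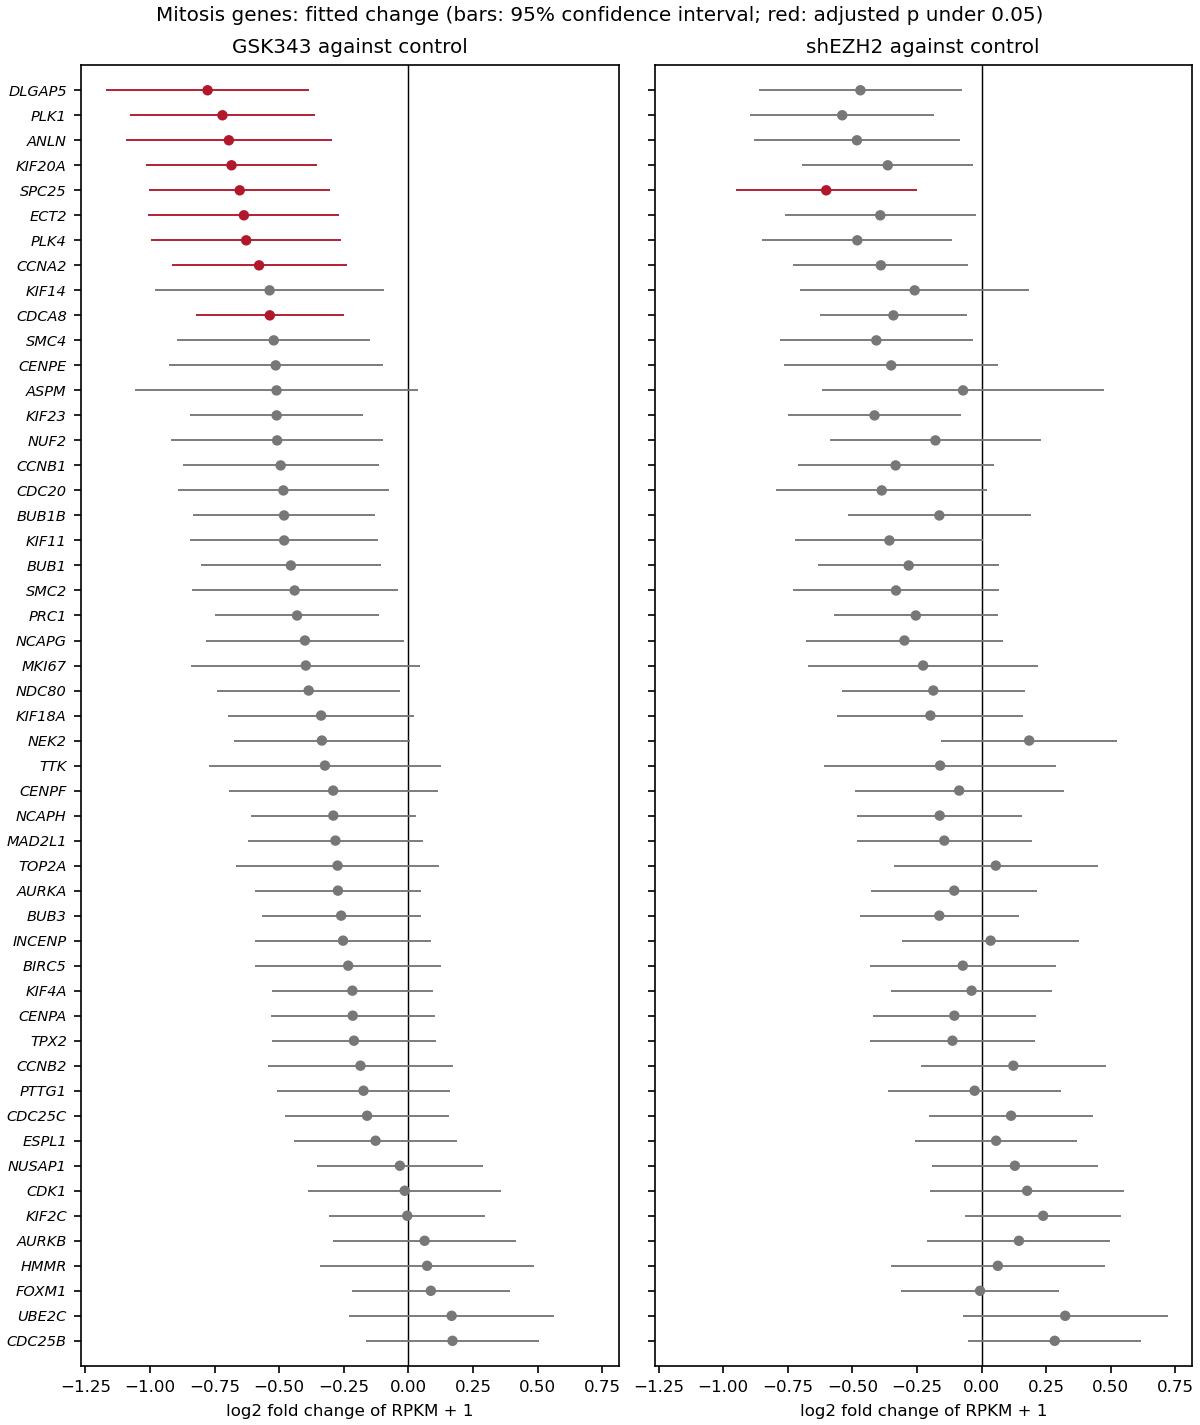
Fitted log2 fold change of RPKM + 1 for each of the 51 mitosis genes (points) with its 95% confidence interval (bars), for GSK343 against control on the left and shEZH2 against control on the right, from limma with the cell line as a block. Red marks an adjusted p under 0.05: 9 members on the left and SPC25 on the right, all below zero.

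The promoters of the members were read for the elements that the choice of members did not use. RefSeq (GRCh38.p14) gave a window of 250 bases before to 50 after the start for 44 of the 51. A CHR motif, TTTGAA or TTCGAA on either strand, was present in 33 of them (75.0%), against 16.6% of the 27305 promoters in the table. Close to the start, from 60 bases before to 50 after, 28 members held it (63.6%), against 5.5% of all promoters. CCAAT, on either strand, was present in 32 (72.7%, against 35.7%), and both elements in 25 (56.8%, against 6.6%). GGCGGGAA, an E2F-type motif, was present in 3 (6.8%, against 3.2%). Other mitosis genes, described further below, had 50 promoters in the table. Of these, 29 held the CHR motif (58.0%), 25 of them close to the start. CCAAT was present in 33 (66.0%) and both elements in 23 (46.0%), so these elements were not particular to the 51 members. Among 16 subunits of the anaphase-promoting complex 3 held the CHR motif (18.8%). Overlaps between motifs were not removed. Anywhere in the window 8 of the 10 called members held the CHR motif (80.0%), and 25 of the 34 others (73.5%). Close to the start the same count was 8 of 10, and 20 of the 34 others (58.8%), a difference of few genes that was not tested. CCNA2 and KIF20A were the called members whose window held no TTTGAA or TTCGAA. The promoters below belong to members that hold the motif anywhere in the window. They are the 4 such members with the smallest p for the mean of both treated groups. Nearness of the motif to the start was not part of that choice. Capitals mark TTTGAA or TTCGAA on either strand (TTCAAA is TTTGAA read from the other strand). The windows are chr2:168890381-168890680 (minus strand), chr16:23678639-23678938 (plus strand), chr14:55191536-55191835 (minus strand) and chr1:37692266-37692565 (plus strand), each written 5′ to 3′ along its gene.
SPC25 promoter: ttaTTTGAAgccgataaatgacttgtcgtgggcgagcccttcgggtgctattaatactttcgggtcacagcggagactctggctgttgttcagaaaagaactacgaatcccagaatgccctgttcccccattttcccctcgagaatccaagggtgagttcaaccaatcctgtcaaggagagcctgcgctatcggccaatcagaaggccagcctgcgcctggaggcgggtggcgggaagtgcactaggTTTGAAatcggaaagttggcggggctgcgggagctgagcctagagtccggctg
PLK1 promoter: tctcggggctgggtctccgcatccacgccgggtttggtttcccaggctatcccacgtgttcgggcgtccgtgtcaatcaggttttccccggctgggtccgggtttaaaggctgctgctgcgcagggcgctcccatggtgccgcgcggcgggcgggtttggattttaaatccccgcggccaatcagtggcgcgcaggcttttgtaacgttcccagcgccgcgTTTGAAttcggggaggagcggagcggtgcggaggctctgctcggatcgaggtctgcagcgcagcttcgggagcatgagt
DLGAP5 promoter: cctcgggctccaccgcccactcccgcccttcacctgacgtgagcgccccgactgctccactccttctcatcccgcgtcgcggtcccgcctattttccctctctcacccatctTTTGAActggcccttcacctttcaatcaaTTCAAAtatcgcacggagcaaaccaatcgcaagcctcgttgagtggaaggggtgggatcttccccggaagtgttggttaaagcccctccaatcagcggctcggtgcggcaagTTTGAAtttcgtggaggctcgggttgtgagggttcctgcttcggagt
CDCA8 promoter: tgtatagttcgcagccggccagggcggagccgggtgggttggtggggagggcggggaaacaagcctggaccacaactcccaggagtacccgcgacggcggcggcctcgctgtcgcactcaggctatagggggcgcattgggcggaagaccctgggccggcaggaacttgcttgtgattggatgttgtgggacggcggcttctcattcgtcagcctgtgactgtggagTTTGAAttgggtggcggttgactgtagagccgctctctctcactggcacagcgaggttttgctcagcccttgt
In these windows the first base of the last marked motif stood -3 bases from the start in SPC25, -29 in PLK1, 3 in DLGAP5 and -23 in CDCA8.

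Among the cyclins, CDK1 and the CDC25 phosphatases 1 of 6 members fell, the cyclin A2 gene CCNA2 (ENSG00000145386.9, chromosome 4, 121816444 to 121823933, minus strand), whose product drives S phase and entry into mitosis. CCNA2 had 78.6, 29.2 and 51.7 RPKM in the GSK343-labelled libraries, 89.1, 33.6 and 59.1 in the shEZH2-labelled libraries, and 91.7, 52.1 and 84.6 in the controls. Every treated library was below the control of its line, while the groups overlapped because MDA-MB-231 held more CCNA2 than MDA-MB-436. The log2 fold change was -0.58 ± 0.34 under the GSK343 label (limma, adjusted p = 0.0428) and -0.39 ± 0.34 under the shEZH2 label (adjusted p = 0.125). The GSK343 call held in 1 of 9 fits that each left out a library, that without the MDA-MB-231 control; elsewhere the change was -0.46 to -0.67.

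CCNB1, the mitotic cyclin that activates CDK1 and the most abundant of these 6 per length, had 109, 76.3 and 84.6 RPKM in the GSK343-labelled libraries, 125, 81.0 and 97.1 in the shEZH2-labelled libraries, and 113, 128 and 137 in the controls. The GSK343-labelled libraries were all below the controls, and the difference lay in MDA-MB-436 and MDA-MB-453 (log2 ratios -0.74 and -0.69) rather than MDA-MB-231 (-0.05). CCNB1 did not pass (-0.49 ± 0.38, adjusted p = 0.1 under the GSK343 label). Its partner CDK1 had 37.5, 30.3 and 31.1 RPKM in the GSK343-labelled libraries, 46.4, 29.996 and 38.1 in the shEZH2-labelled libraries, and 28.7, 32.0 and 39.6 in the controls. In MDA-MB-231 both treated libraries held more CDK1 than the control (log2 ratios 0.37 and 0.67), and in MDA-MB-436 and MDA-MB-453 less (-0.06 to -0.34). CDC25B, a phosphatase that activates CDK1, had the highest ratios of this group in MDA-MB-453 (0.51 and 0.48), and its fitted changes of 0.17 ± 0.33 and 0.28 ± 0.33 did not pass.

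Of the mitotic and centriole kinases 2 of 4 fell. PLK1 (ENSG00000166851.14, chromosome 16, 23677656 to 23690367, plus strand) encodes the polo-like kinase that matures centrosomes and drives mitotic entry and exit. Its RPKM was 34.3, 38.9 and 45.8 in the GSK343-labelled libraries, 41.0, 53.1 and 41.2 in the shEZH2-labelled libraries, and 59.7, 84.1 and 56.0 in the controls. All 6 treated libraries were below all 3 controls. PLK1 fell 1.65-fold under the GSK343 label (-0.72 ± 0.36, adjusted p = 0.0234) and was 1.45-fold lower under the shEZH2 label without passing (-0.54 ± 0.36, adjusted p = 0.0554). The GSK343 call was lost without the MDA-MB-231 control, the MDA-MB-436 control or the GSK343-labelled library of either line (-0.56 to -0.71). An antisense gene overlaps 11.62% of the PLK1 exons, and the strand setting of the counting is not given in the sources used here.

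PLK4 (ENSG00000142731.10, chromosome 4, 127880861 to 127899195, plus strand), the kinase that starts centriole duplication, had 8.69, 6.12 and 7.93 RPKM in the GSK343-labelled libraries, 11.3, 6.05 and 8.6 in the shEZH2-labelled libraries, and 13.2, 7.75 and 17.2 in the controls. Every treated library was below its control, by the largest ratio in MDA-MB-453 (log2 ratios -1.03 and -0.92). The fitted change was -0.63 ± 0.37 under the GSK343 label (adjusted p = 0.0424) and -0.48 ± 0.37 under the shEZH2 label (adjusted p = 0.0865). The GSK343 call was lost in 6 of 9 single-library fits (-0.42 to -0.71): those without the MDA-MB-231 or MDA-MB-453 control, either GSK343-labelled library of these lines, or the shEZH2-labelled MDA-MB-231 or MDA-MB-436 library. The Aurora kinase AURKA, which acts at centrosomes and the spindle, had 80.4, 50.7 and 65.4 RPKM in the GSK343-labelled libraries, 96.3, 55.1 and 71.5 in the shEZH2-labelled libraries, and 83.1, 66.6 and 85.7 in the controls, with fitted changes of -0.27 ± 0.32 and -0.11 ± 0.32 that did not pass. NEK2, which separates the centrosomes, had 11.1, 11.5 and 11.9 RPKM in the GSK343-labelled libraries, all below the 15.0, 12.8 and 16.9 of the controls. The shEZH2-labelled libraries had 21.5, 14.4 and 15.8, above the control in MDA-MB-231 and MDA-MB-436 and below it in MDA-MB-453.

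In the chromosomal passenger complex, which corrects faulty attachments of chromosomes to the spindle, 1 of 4 members fell. CDCA8 (ENSG00000134690.10, chromosome 1, 37692418 to 37709719, plus strand), the gene of borealin, had 59.97, 46.8 and 49.7 RPKM in the GSK343-labelled libraries, 67.0, 54.5 and 57.7 in the shEZH2-labelled libraries, and 82.9, 70.1 and 74.5 in the controls. All 6 treated libraries were below all 3 controls, and the ratios were alike in the 3 lines (log2 ratios -0.46, -0.57 and -0.58 under the GSK343 label, and -0.30, -0.36 and -0.36 under the shEZH2 label). CDCA8 fell 1.45-fold under the GSK343 label (-0.54 ± 0.29, adjusted p = 0.0307), and its shEZH2 value was -0.34 ± 0.29 (adjusted p = 0.113). The GSK343 call was lost without the MDA-MB-453 control, any single GSK343-labelled library, or the shEZH2-labelled MDA-MB-436 library, at values between -0.52 and -0.56. The kinase of the complex, AURKB, had 94.6, 52.8 and 60.5 RPKM in the GSK343-labelled libraries, 87.2, 57.8 and 71.3 in the shEZH2-labelled libraries, and 76.4, 66.3 and 52.3 in the controls. AURKB was above the control in MDA-MB-231 and MDA-MB-453 and below it in MDA-MB-436, and its fitted changes were 0.06 ± 0.35 and 0.14 ± 0.35; under the GSK343 label AURKB turned to -0.0033 with rescaling to a common sum, and below zero without some single libraries. BIRC5 (survivin) was lower in MDA-MB-436 (log2 ratios -0.64 and -0.51) and between -0.14 and 0.18 in the other lines. INCENP, the scaffold, was lowest in the GSK343-labelled MDA-MB-231 library (23.7 RPKM, against 37.3 in its control).

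No member of the spindle checkpoint, which delays anaphase until all kinetochores are attached, passed in any comparison, and all 5 had fitted changes below zero in both comparisons (-0.26 to -0.48 for GSK343, and -0.14 to -0.28 for shEZH2). At an unadjusted p under 0.05, 2 of the 5 were lower in the GSK343 comparison and 0 in the shEZH2 comparison. The checkpoint kinase gene BUB1 had 35.2, 23.4 and 34.4 RPKM in the GSK343-labelled libraries, 45.2, 25.7 and 35.3 in the shEZH2-labelled libraries, and 39.9, 35.7 and 52.7 in the controls. Its GSK343-labelled libraries were all below the controls (-0.45 ± 0.35, adjusted p = 0.1). BUB1B, which holds back the anaphase-promoting complex, was lowest in MDA-MB-231 under the GSK343 label (15.1 RPKM, against 18.7 in its control) and highest in the MDA-MB-453 control (39.0). TTK, the kinase that starts checkpoint signalling, had log2 ratios of -0.83 and -0.84 in MDA-MB-453, against -0.08 for both treated libraries of MDA-MB-436.

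Of the 4 anaphase regulators none passed, and per length UBE2C and CDC20 were the most abundant members of all 51. CDC20, which activates the anaphase-promoting complex, had 193, 129 and 143 RPKM in the GSK343-labelled libraries, 181, 154 and 156 in the shEZH2-labelled libraries, and 232, 268 and 157 in the controls. Its level was lowest against control in MDA-MB-436 under both labels (log2 ratios -1.05 and -0.79), while MDA-MB-453 gave -0.13 and -0.01, and the fitted changes of -0.48 ± 0.41 (adjusted p = 0.13) and -0.39 ± 0.41 (adjusted p = 0.197) did not pass. UBE2C, the ubiquitin-conjugating enzyme that works with the complex, had 255, 157 and 206 RPKM in the GSK343-labelled libraries, 314, 166 and 220.3 in the shEZH2-labelled libraries, and 211, 189 and 146 in the controls. UBE2C was above the control in MDA-MB-231 and MDA-MB-453 and below it in MDA-MB-436, with fitted changes of 0.17 ± 0.40 and 0.32 ± 0.40. Securin (PTTG1) and separase (ESPL1), the inhibitor and the protease that opens cohesin rings, had fitted changes between -0.17 and 0.06.

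At the centromere and kinetochore 1 of 6 members fell. SPC25 (ENSG00000152253.8, chromosome 2, 168834132 to 168913371, minus strand), a subunit of the NDC80 complex that binds spindle microtubules, had 2.76, 3.51 and 2.97 RPKM in the GSK343-labelled libraries, 2.11, 4.36 and 3.5 in the shEZH2-labelled libraries, and 3.56, 6.31 and 6.84 in the controls. The GSK343-labelled libraries were all below the controls; the shEZH2-labelled libraries were each below the control of their line and overlapped the group. SPC25 fell 1.57-fold under the GSK343 label (-0.65 ± 0.35, adjusted p = 0.0316) and 1.52-fold under the shEZH2 label (-0.60 ± 0.35, adjusted p = 0.0351), and was the member called in both. It is also the scarcest member: its values rest on 75, 107 and 84 reads in the GSK343-labelled libraries, 71, 143 and 107 in the shEZH2-labelled libraries, and 110, 195 and 203 in the controls, as recovered from the RPKM, and counting error is larger for it than for the others. The GSK343 call was lost without the MDA-MB-453 control or the GSK343-labelled MDA-MB-436 or MDA-MB-453 library (-0.52 to -0.59), and the shEZH2 call without the control of MDA-MB-436 or MDA-MB-453 or any shEZH2-labelled library (-0.47 to -0.69).

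The partners of SPC25 in the same complex, NDC80 and NUF2, were lower in MDA-MB-436 and MDA-MB-453 (log2 ratios -0.29 to -0.90) and not in MDA-MB-231 (-0.04 to 0.43), and neither passed. CENPF, a large kinetochore protein, had 25.5, 21.1 and 27.8 RPKM in the GSK343-labelled libraries, 39.0, 20.4 and 29.1 in the shEZH2-labelled libraries, and 31.2, 19.9 and 44.8 in the controls. Its fitted changes were -0.29 ± 0.40 for GSK343 and -0.09 ± 0.40 for shEZH2, and for shEZH2 it turned above zero without the MDA-MB-453 control (0.14) or the shEZH2-labelled library of that line (0.08). CENPE, a kinetochore motor, had 8.56 and 9.33 RPKM in the treated libraries of MDA-MB-453, against 18.8 in their control, the highest value of the 9. CENPA, the histone H3 variant that marks centromeres, had log2 ratios of -0.51 and -0.39 in MDA-MB-436 and between -0.14 and 0.06 elsewhere.

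Of the 7 kinesin motors KIF20A fell under the GSK343 label, and KIF20A and KIF23 fell in the mean of both treated groups; both move cytokinesis proteins to the spindle midzone. KIF20A (ENSG00000112984.11, chromosome 5, 138178719 to 138187715, plus strand) had 39.6, 36.5 and 41.8 RPKM in the GSK343-labelled libraries, 58.8, 43.3 and 46.8 in the shEZH2-labelled libraries, and 58.0, 64.0 and 69.3 in the controls. The GSK343-labelled libraries were all below the controls, and the shEZH2-labelled MDA-MB-231 library stood level with its control. KIF20A fell 1.61-fold under the GSK343 label (-0.68 ± 0.33, adjusted p = 0.0215) and was -0.36 ± 0.33 under the shEZH2 label (adjusted p = 0.141). The GSK343 call was lost without any single GSK343-labelled library or the control of MDA-MB-436 or MDA-MB-453 (-0.61 to -0.72). KIF23 (ENSG00000137807.13, chromosome 15, 69414246 to 69448427, plus strand) had 19.9, 10.9 and 17.0 RPKM in the GSK343-labelled libraries, 21.6, 12.8 and 16.4 in the shEZH2-labelled libraries, and 22.9, 17.5 and 28.2 in the controls. Every treated library was below its control, and the mean of both gave -0.46 ± 0.29 (adjusted p = 0.0359). That call was lost without the control, the GSK343-labelled or the shEZH2-labelled MDA-MB-436 or MDA-MB-453 library (-0.33 to -0.48).

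The other 5 kinesins did not pass. KIF2C, which takes microtubules apart at centromeres and was the most abundant kinesin per length, had 69.3, 53.8 and 61.9 RPKM in the GSK343-labelled libraries, 89.9, 61.7 and 69.4 in the shEZH2-labelled libraries, and 65.9, 58.6 and 60.2 in the controls, with fitted changes of -0.0044 ± 0.30 and 0.24 ± 0.30. KIF11, the motor that pushes the spindle poles apart, KIF14, a motor of cytokinesis, and KIF18A, which aligns chromosomes, each held their highest value in the MDA-MB-453 control (44.1, 22.1 and 16.6 RPKM). Their log2 ratios in that line were -0.64 to -0.92.

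Among the spindle assembly factors 1 of 5 fell, DLGAP5 (ENSG00000126787.12, chromosome 14, 55148112 to 55191678, minus strand), whose product stabilises kinetochore microtubules. DLGAP5 had 30.8, 15.4 and 22.0 RPKM in the GSK343-labelled libraries, 43.4, 17.4 and 26.7 in the shEZH2-labelled libraries, and 44.7, 22.9 and 54.1 in the controls. Every treated library was below its control, although the one labelled shEZH2 in MDA-MB-231 only just, and the groups overlapped. It fell 1.71-fold under the GSK343 label (-0.78 ± 0.39, adjusted p = 0.0255), the lowest fitted change of the 51, and was -0.47 ± 0.39 under the shEZH2 label (adjusted p = 0.114). The GSK343 call was lost without the MDA-MB-453 control or the GSK343-labelled MDA-MB-231 or MDA-MB-453 library (-0.52 to -0.80). TPX2, which nucleates spindle microtubules and activates AURKA, had 172, 148 and 157 RPKM in the GSK343-labelled libraries, 192, 149 and 171 in the shEZH2-labelled libraries, and 184, 161 and 209 in the controls, with fitted changes of -0.21 ± 0.32 and -0.11 ± 0.32.

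ASPM and HMMR showed the least uniform pattern of the spindle factors. ASPM, a spindle pole protein, had 9.51, 18.2 and 17.2 RPKM in the GSK343-labelled libraries, 23.0, 18.7 and 18.4 in the shEZH2-labelled libraries, and 16.3, 16.5 and 34.1 in the controls. In MDA-MB-231 it was below the control under the GSK343 label (log2 ratio -0.72) and above it under the shEZH2 label (0.47). HMMR, a spindle protein and hyaluronan receptor, had 5.37, 16.5 and 11.6 RPKM in the GSK343-labelled libraries, 6.31, 15.3 and 10.5 in the shEZH2-labelled libraries, and 3.62, 15.2 and 15.0 in the controls, higher in both treated libraries of MDA-MB-231 (0.46 and 0.66) and lower in those of MDA-MB-453 (-0.35 and -0.47).

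In cytokinesis, the final division of the cell, 2 of 3 members fell, and all 3 had an unadjusted p under 0.05 under the GSK343 label. ECT2 (ENSG00000114346.13, chromosome 3, 172750682 to 172821474, plus strand), the exchange factor that switches on RhoA at the division plane, had 27.7, 17.3 and 26.5 RPKM in the GSK343-labelled libraries, 39.7, 19.0 and 28.3 in the shEZH2-labelled libraries, and 38.8, 24.5 and 52.4 in the controls. ANLN (ENSG00000011426.10, chromosome 7, 36389806 to 36453791, plus strand), the gene of the contractile ring scaffold anillin, had 66.0, 38.4 and 61.7 RPKM in the GSK343-labelled libraries, 96.9, 38.5 and 65.6 in the shEZH2-labelled libraries, and 94.1, 56.1 and 128 in the controls. Both genes had the same layout: below the control in all 3 lines under the GSK343 label, level with the MDA-MB-231 control under the shEZH2 label, and furthest below the control in MDA-MB-453 (log2 ratios -0.86 to -1.04). The fitted changes under the GSK343 label were -0.64 ± 0.37 for ECT2 (adjusted p = 0.0415) and -0.69 ± 0.40 for ANLN (adjusted p = 0.0391), and under the shEZH2 label -0.39 ± 0.37 (adjusted p = 0.153) and -0.48 ± 0.40 (adjusted p = 0.108). Both GSK343 calls were lost without any single GSK343-labelled library and without the control of MDA-MB-436 or MDA-MB-453, and that of ECT2 also without the shEZH2-labelled MDA-MB-436 library, at values of -0.44 to -0.79. PRC1, the microtubule bundler of the midzone, did not pass (-0.43 ± 0.32, adjusted p = 0.0896); 57.57% of its exon length is shared with a gene on the same strand, so its count is uncertain.

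Chromosome structure genes gave 0 calls among 6, with all 6 below zero under the GSK343 label (-0.27 to -0.52) and 3 of them at an unadjusted p under 0.05. SMC4, a core subunit of condensin, had 17.7, 17.6 and 19.2 RPKM in the GSK343-labelled libraries, 22.1, 17.9 and 19.3 in the shEZH2-labelled libraries, and 27.1, 18.9 and 36.0 in the controls, and the mean of both gave -0.46 ± 0.32 (adjusted p = 0.0522). TOP2A, the topoisomerase that untangles sister chromatids and the most abundant of the 6 per length, had 99.8, 39.4 and 82.2 RPKM in the GSK343-labelled libraries, 160.3, 43.2 and 93.0 in the shEZH2-labelled libraries, and 104, 46.2 and 119.7 in the controls. Its shEZH2-labelled MDA-MB-231 library held the highest value of the 9. MKI67, the gene of the proliferation marker Ki-67, was lower in MDA-MB-231 under the GSK343 label (27.4 RPKM, against 50.2 in the control; log2 ratio -0.85, the lowest of the 51 in that library) and higher in MDA-MB-436 (34.0, against 29.7). SMC2, NCAPG and NCAPH, further condensin subunits, had fitted changes of -0.29 to -0.44 under the GSK343 label. On the opposite strand TRIM59 overlaps 18.46% of the SMC4 exon length and LCORL 33.14% of that of NCAPG. With the strand setting of the counting not given, the counts of SMC4 and NCAPG are uncertain.

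FOXM1, the transcription factor that turns on many of these genes, did not follow them. Its RPKM was 65.1, 131 and 112 in the GSK343-labelled libraries, 58.6, 138 and 97.2 in the shEZH2-labelled libraries, and 63.5, 136 and 92.2 in the controls. The fitted changes were 0.09 ± 0.31 and -0.006 ± 0.31, and under the GSK343 label FOXM1 turned to -0.0087 without the MDA-MB-453 line. An ITFG2 exon overlaps 15.94% of the FOXM1 exon length.

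**Figure D2:**
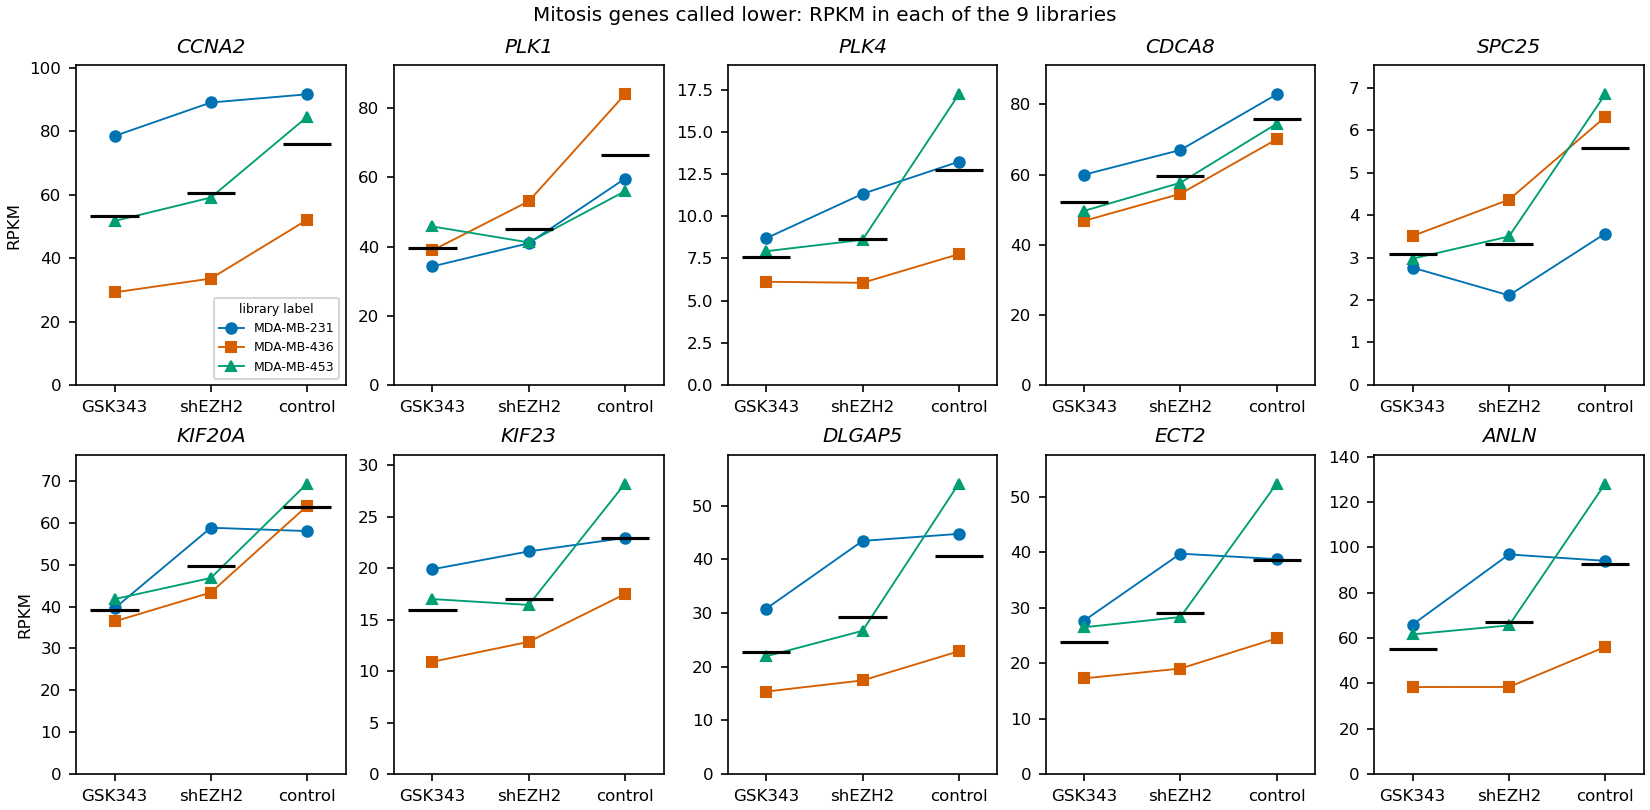
RPKM of the 10 called mitosis genes in each of the 9 libraries (symbols and colours give the line label, black bars the group means, and lines join libraries of a line). PLK1 and CDCA8 are the genes in which all 6 treated libraries lie below all 3 controls; in PLK4, SPC25, KIF20A, KIF23, DLGAP5, ECT2 and ANLN the control labelled MDA-MB-453 is the highest point.

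Groups that did not overlap gave a second view that uses no model. In 10 members all 3 GSK343-labelled libraries were below all 3 controls (CCNB1, PLK1, NEK2, CDCA8, BUB1, SPC25, KIF20A, PRC1, NCAPG and NCAPH), and in 0 were they above, where the shares of all genes tested were 3.03% and 6.67%. For the shEZH2-labelled libraries this held for PLK1 and CDCA8, 2 of 51 members, against 4.48% of all genes, and 0 were above, against 7.39%. All 6 treated libraries were below the controls in the same 2 genes, against 2.14% of all genes tested, and above them in 0, against 4.57%.

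Within single lines, where each comparison is 1 library against another and has no test, the members lay mainly below the control in 5 of the 6 treated libraries and mainly above it in the shEZH2-labelled MDA-MB-231 library. In MDA-MB-231, 15 members were lower and 2 higher than the control by more than 0.32 on the log2 scale under the GSK343 label (14.5% and 19.1% of all genes tested), and 3 lower and 13 higher under the shEZH2 label (17.6% and 20.8%). In MDA-MB-436, 24 were lower and 0 higher under the GSK343 label (12.8% and 28.2% of all genes), and 18 lower and 0 higher under the shEZH2 label (12.1% and 26.1%). In MDA-MB-453, 37 were lower and 2 higher under the GSK343 label (23.4% and 30.1%), and 30 lower and 3 higher under the shEZH2 label (21.6% and 31.7%). The members' median log2 ratio was -0.18 (GSK343) and 0.15 (shEZH2) in MDA-MB-231. It was -0.27 (GSK343) and -0.19 (shEZH2) in MDA-MB-436, and -0.54 (GSK343) and -0.47 (shEZH2) in MDA-MB-453.

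The members at the ends of these ranges differed by line. Under the GSK343 label the lowest ratio belonged to MKI67 in MDA-MB-231 (-0.85), PLK1 in MDA-MB-436 (-1.09) and DLGAP5 in MDA-MB-453 (-1.26). Under the shEZH2 label it belonged to SPC25 (-0.55), CDC20 (-0.79) and DLGAP5 (-0.99). The highest ratio under the GSK343 label was that of HMMR (0.46), MKI67 (0.19) and CDC25B (0.51) in the 3 lines, and under the shEZH2 label that of CDK1 (0.67), MKI67 (0.21) and UBE2C (0.59). Both treated libraries of a line were below its control for 15 members of the 51 in MDA-MB-231, for 38 of them in MDA-MB-436 and for 42 of them in MDA-MB-453, against 34.0%, 32.4% and 41.3% of all genes tested. In MDA-MB-231 another 24 members were below the control under the GSK343 label and above it under the shEZH2 label. Over all 12965 genes tested, 1573 did so. A further 11 members were above that control under both labels (21.6%, against 37.7% of all genes tested).

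**Figure D3:**
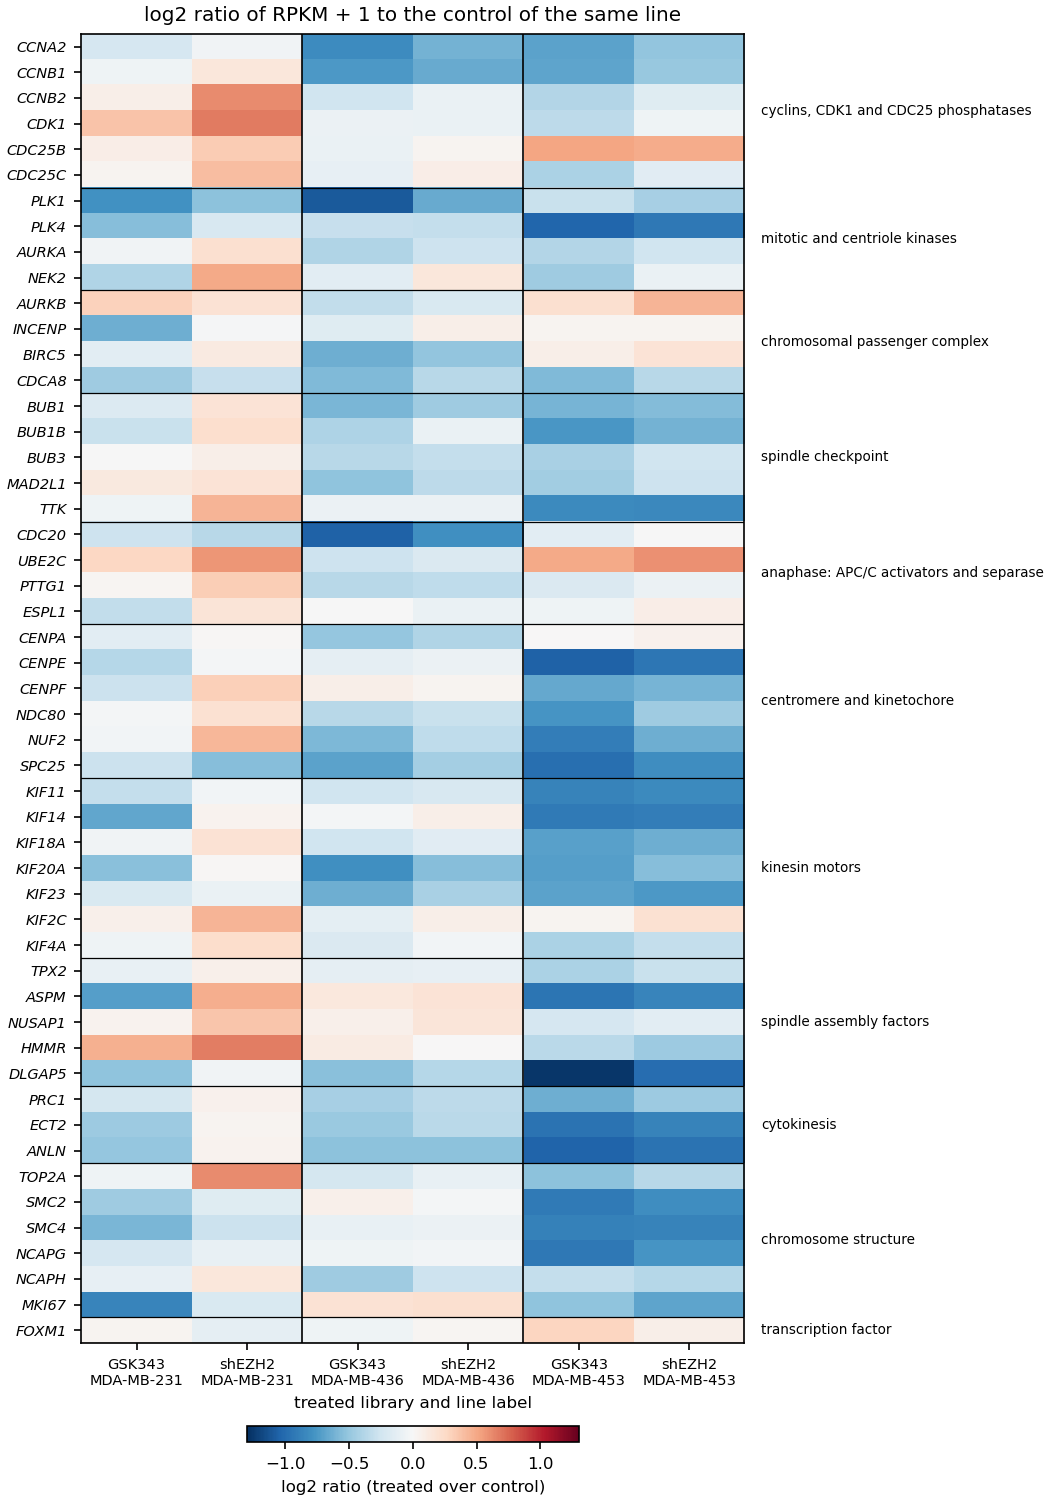
Log2 ratio of RPKM + 1 to the control of the same line for each of the 51 mitosis genes (rows, grouped by role) and each of the 6 treated libraries (columns, by line label). Blue is lower and red higher than control; the MDA-MB-453 columns hold the most blue, with medians of -0.54 and -0.47, and the shEZH2 column of MDA-MB-231 the most red, with a median of 0.15.

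Whether the response of a member differed between lines was tested with an F-test in a second limma model that takes both treated libraries of a line together. It called 0 of the 51 members, against 0.0231% of all genes tested (3 of 12965), and the smallest adjusted p was 0.0977, for HMMR. At an unadjusted p under 0.05 there were 16 members (31.4%), against 28.6% of all genes tested. The count depended on MDA-MB-231. Without its control the whole line drops out of this test, which then sets MDA-MB-436 against MDA-MB-453 alone. The count was then 20 (39.2%, against 26.1% of all genes tested), the same as without all 3 MDA-MB-231 libraries. It was 27 (52.9%, against 30.6%) without the GSK343-labelled MDA-MB-231 library and 19 (37.3%, against 31.2%) without the shEZH2-labelled one.

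GSK343-labelled libraries were set against shEZH2-labelled libraries in the same lines to ask whether these groups differed. No member passed and 0 of all 12965 genes did, and the fitted difference was below zero for 49 of 51 members, against 47.8% of all genes tested (median -0.17, against 0.01). At an unadjusted p under 0.05 there was 1 member, NEK2 (-0.52 ± 0.34, limma adjusted p = 1.0), against 199 lower and 96 higher over all genes. In 35 members the GSK343-labelled library was the lower one in 3 of 3 lines, a count that was not made over all genes. The difference was widest in MDA-MB-231 (median -0.30), where 21 members were lower and 0 higher by more than 0.32, against 14.4% and 14.7% of all genes. ASPM (9.51 RPKM under the GSK343 label, against 23.0 under the shEZH2 label), NEK2 (11.1, against 21.5) and KIF14 (6.58, against 11.5) lay lowest there. The medians were -0.12 (MDA-MB-436) and -0.11 (MDA-MB-453), and 1 member in each was lower by more than 0.32 (PLK1 and NEK2), against 3.55% and 4.67% of all genes. None was higher by as much in either line, against 2.94% and 3.02% of all genes. For most members the interval of the direct difference spans zero, for example -0.05 ± 0.35 for SPC25 and -0.18 ± 0.36 for PLK1, which does not show that the groups are alike.

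**Figure D4:**
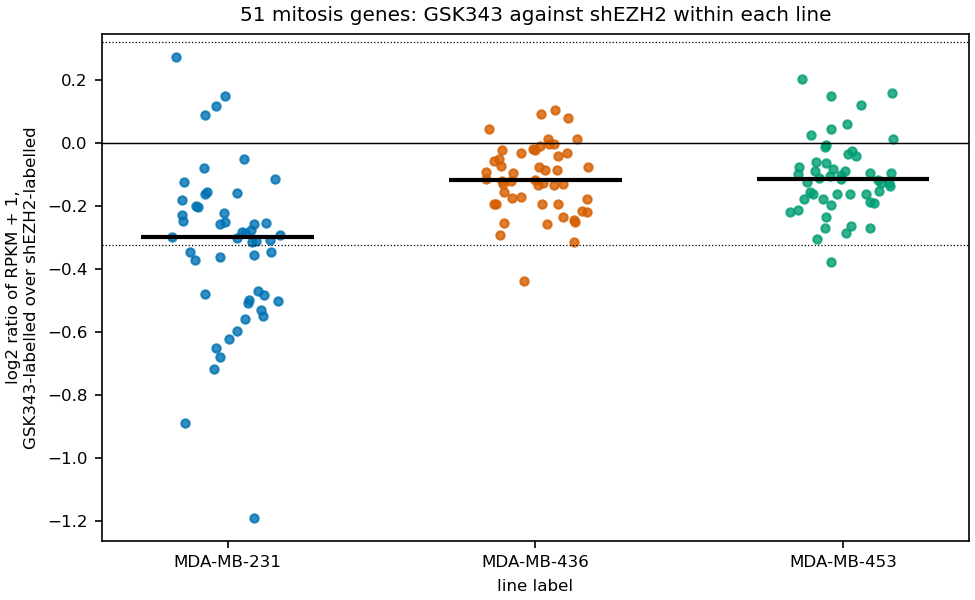
Log2 ratio of RPKM + 1 between the GSK343-labelled and the shEZH2-labelled library of each line, 1 point per mitosis gene (51 per line, spread sideways for legibility). Black bars are the medians (-0.30, -0.12 and -0.11), dotted lines mark 0.32 above and below zero; the points lie mainly below zero in each line and reach -1.19, for ASPM, in MDA-MB-231.

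The control library labelled MDA-MB-453 stood out in these genes. It held the highest value of the 9 libraries for 25 of 51 members, and the GSK343-labelled MDA-MB-436 library the lowest for 28. These counts were not made over all genes. In the controls the MDA-MB-453 value lay between the values of the other lines for 10 members, above both for 34 and below both for 7, where 47.1% of all genes tested lay between. It was above both by more than 0.32 on the log2 scale for 14 members (27.5%, against 12.4% of all genes tested). In the treated groups the MDA-MB-453 value lay between the other lines for 42 members (GSK343 label) and 46 members (shEZH2 label), 82.4% and 90.2%, where 73.8% and 83.0% of all genes tested did so, and for 0 members was it above both by more than 0.32. Against the midpoint of the other lines on the log2 scale, the median over members was 0.05 under the GSK343 label, -0.06 under the shEZH2 label and 0.31 in the controls. The ratios of MDA-MB-453 above are therefore those of treated libraries near the midpoint of the other lines to a control above it.

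Exon length moved with that position. Over the 51 members Spearman's rho between exon length and the control's distance from the midpoint was 0.591, against 0.345 over 12929 genes. It was 0.606 (against 0.331) for the GSK343-labelled library and 0.278 (against 0.066) for the shEZH2-labelled library. In the control the 17 longest members (above 4906 bases) had a median distance of 0.66, and the 17 shortest (up to 3603 bases) 0.19. In the GSK343-labelled library these medians were 0.15 and -0.06. For the treated-to-control ratios in MDA-MB-453 rho was -0.383 (GSK343 label) and -0.484 (shEZH2 label) over members, against -0.192 and -0.225 over all genes. In MDA-MB-436 the sign was the other way, 0.414 and 0.301 over members, against 0.145 and 0.135 over all genes. In MDA-MB-231 rho was -0.437 and -0.157 over members, against -0.204 and 0.05 over all genes. Genes are not independent replicates and all points share their libraries, so these are descriptions, and the part of exon length in the changes above was not tested.

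**Figure D5:**
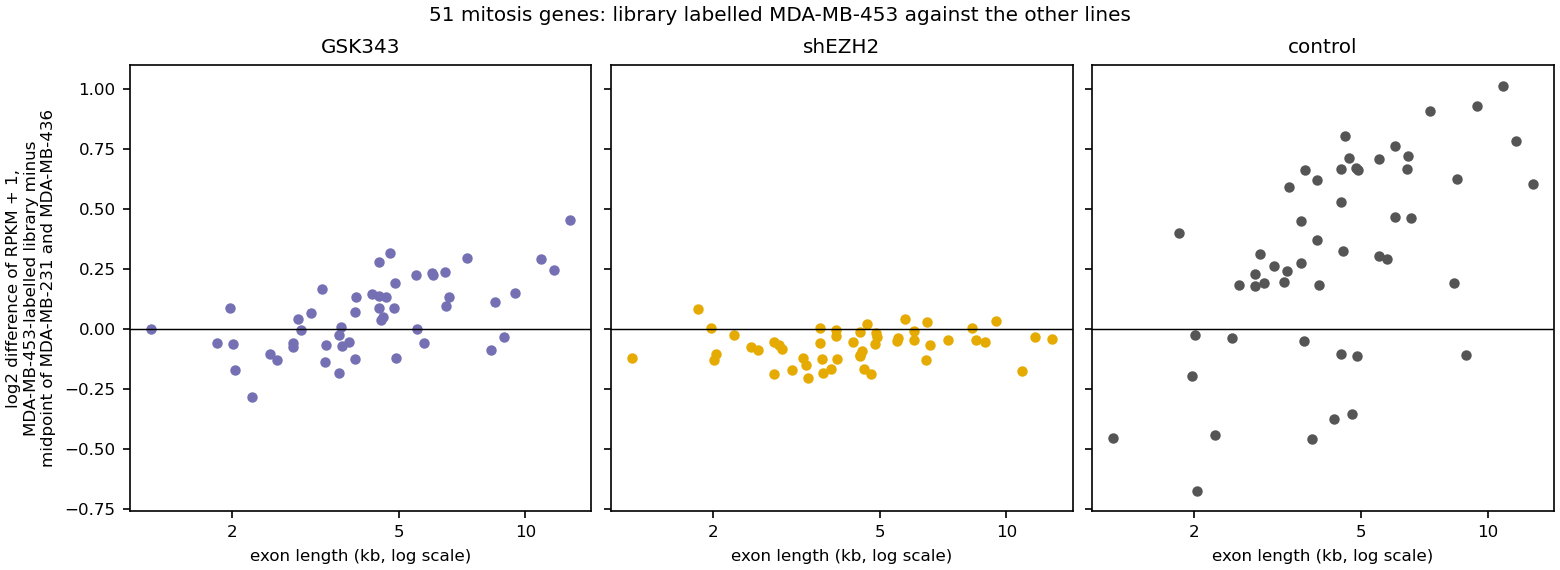
Distance of the library labelled MDA-MB-453 from the midpoint of the other lines (log2 of RPKM + 1, vertical axis) against exon length (kilobases, log axis) for the 51 mitosis genes, in 3 panels for GSK343, shEZH2 and control. The midpoint is the mean RPKM of the other lines. The treated libraries stay near zero (medians 0.05 and -0.06), while the control runs higher (median 0.31). Values increase with exon length in the control (Spearman's rho 0.591) and under the GSK343 label (0.606), and less so under the shEZH2 label (0.278).

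Levels of the members also differed between lines in ways that held in each condition. Summed over the 51, the RPKM was 2399, 1945 and 2221 in the GSK343-labelled libraries, 2924, 2115 and 2381 in the shEZH2-labelled libraries, and 2630.4, 2517 and 2862 in the controls. MDA-MB-231 exceeded MDA-MB-436 in all 3 conditions for 28 members, and the reverse held for 12 (54.9% and 23.5%, against 35.8% and 42.7% of all genes tested). By at least 1.5-fold in every condition, 9 members were higher in MDA-MB-231 and 2 in MDA-MB-436 (17.6% and 3.92%, against 15.5% and 17.8% of all genes tested). TOP2A (2.73-fold on average over the conditions), CCNA2 (2.29-fold), NDC80 (2.19-fold), SMC2 (2.15-fold) and DLGAP5 (2.08-fold) were higher in MDA-MB-231. HMMR (2.78-fold) and FOXM1 (2.14-fold) were higher in MDA-MB-436. With 1 library per line and condition these differences have no test.

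Further genes of the same pathways put the members in context. Of 60 other mitosis genes 3 fell in the mean of both treated groups and 1 rose, where 4.3% of all genes tested fell and 12.2% rose, so the share that fell is near that of all genes. Their median log2 fold change was -0.15, and it lay below zero for 48 of the 60 (80%, against 43.1% of all genes tested). At an unadjusted p under 0.05, 25% were lower and 3.33% higher, against 11.1% and 21.8% of all genes tested. DEPDC1B, which couples adhesion to mitotic entry, had 5.57, 5.52 and 5.10 RPKM in the GSK343-labelled libraries, 6.15, 5.58 and 5.55 in the shEZH2-labelled libraries, and 10.5, 7.64 and 13.5 in the controls (-0.78 ± 0.32, adjusted p = 0.00585). PMF1, a subunit of the kinetochore MIS12 complex, fell (-0.68 ± 0.36, adjusted p = 0.0188), as did CDCA3 (-0.43 ± 0.29, adjusted p = 0.0452), which targets WEE1 for destruction, while the centromere protein gene CENPT rose (0.54 ± 0.31, adjusted p = 0.0239). Among 16 subunits of the anaphase-promoting complex 0 passed in limma and 2 were lower at an unadjusted p under 0.05 (median -0.10), CDC27 having the smallest p. Among 19 tested RB, E2F and MuvB regulators 1 fell, the E2F partner TFDP1 (-0.40 ± 0.27, adjusted p = 0.0477), and 1 rose, the repressor E2F7 (0.43 ± 0.29, adjusted p = 0.0463), against the same 4.3% and 12.2%, with a median of -0.07. LIN9, a MuvB subunit, was next (-0.40 ± 0.31, adjusted p = 0.0745) and did not pass.

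Of 15 G1 cyclins, their kinases and inhibitors 2 fell and 2 rose in the mean of both treated groups, where 4.3% of all genes tested fell and 12.2% rose. The CDK inhibitor p21, CDKN1A, had 105, 37.3 and 69.7 RPKM in the GSK343-labelled libraries, 120.2, 33.4 and 74.8 in the shEZH2-labelled libraries, and 51.5, 10.3 and 23.8 in the controls. It was above the control in every treated library (1.45 ± 0.30, adjusted p = 0.000183). Cyclin D1 (CCND1, -0.54 ± 0.31, adjusted p = 0.0254) and its kinase CDK6 (-0.53 ± 0.31, adjusted p = 0.027) fell, and cyclin D3 (CCND3) rose (0.51 ± 0.33, adjusted p = 0.0404). Without the libraries labelled MDA-MB-453 CDKN1A kept its call (1.40 ± 0.40, adjusted p = 0.025). The other 9 further genes named in these lists lost theirs, among them CCND3 (0.27 ± 0.29, adjusted p = 0.268), DEPDC1B (-0.57 ± 0.33, adjusted p = 0.0919) and PMF1 (-0.92 ± 0.38, adjusted p = 0.0523).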

How the data were processed

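RNA of 9 libraries, 3 cell lines with 3 conditions each, was sequenced. The authors deposited 1 table of RPKM values for 58037 genes with 9 columns, and, per the submitters' processing notes, reads went through STAR and HTSeq on GRCh38. Tool versions, annotation and strandedness are not given in those notes. The deposited RPKM multiplied by exon length from GENCODE release 29 gave whole reads within 0.05 for low values, so that release was used for exon lengths, coordinates and read numbers; 48 of the 51 members have the same identifier version in it. The read totals behind the RPKM, recovered from the steps between low values and not reported by the authors, were 14757043 to 18283426 per library.

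Values were tested as log2(RPKM + 1) in limma 3.58.1 (R 4.3.3) with trend moderation, condition and cell line as terms, and 4 residual degrees of freedom, for the 12965 genes that reached an RPKM of 1 in 3 or more libraries. All 51 members passed that filter. P-values are two-sided and were adjusted over all genes tested by Benjamini-Hochberg, at a threshold of 0.05. A log2 fold change on this scale understates the change of low genes, and no member has a count test as its main result because the values are not counts. A difference between lines was tested with an F-test on 3 residual degrees of freedom, which come from the differences between the treated libraries of a line. The line pairs the libraries: deviations from group means correlated at 0.358 to 0.953 within a line and at -0.914 to 0.0903 between lines. The procedure was tested on simulated data.

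Members and gene lists were chosen with earlier results of these data known, so no list was tested and no p-value is given for one. Named members were those called in any test and, in each role group, the one with the smallest p for the mean of both treated groups and the one with the highest mean RPKM; further members were named after their values were seen. Alternatives covered the pseudocount, filter, scaling, moderation, block, libraries in the fit, and single libraries or lines left out.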

Additional observations from a re-analysis of the deposited data

How the results depend on the processing

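With no filter on low values 0 members were called under the GSK343 label, 0 under the shEZH2 label and 0 for the mean of both treated groups, and without the replicate block, which ignores the pairing by line, the counts were also 0, 0 and 0. Rescaling to a common sum and robust moderation each gave 2 shEZH2 calls, and the fit on the 6 libraries of the GSK343 comparison lost CCNA2 and CDCA8. Leaving out 1 library or line at a time gave 0 to 11 members lower under the GSK343 label, 0 to 4 lower and 0 to 1 higher under the shEZH2 label, 1 to 13 lower and 0 to 1 higher for the mean of both, and 0 to 27 in the test between lines. At 1.5-fold in place of the smaller ratio, members lower under the GSK343 label, the shEZH2 label and in the direct comparison numbered 6, 0 and 7 in MDA-MB-231, 10, 4 and 0 in MDA-MB-436, and 24, 19 and 0 in MDA-MB-453. A pseudocount of 0.1 and median-ratio rescaling each gave 2 in the direct comparison in MDA-MB-436.

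AURKB was -0.0033 under the GSK343 label with a common sum, and FOXM1 -0.0079 for the mean of both with median-ratio rescaling. Over the fits with 1 library or line left out, the GSK343 values ran from -0.0583 to 0.2553 for AURKB, -0.0738 to 0.0665 for KIF2C and -0.0087 to 0.1633 for FOXM1. The shEZH2 values ran from -0.0034 to 0.3254 for AURKB, -0.2866 to 0.173 for CENPF, -0.2272 to 0.263 for TOP2A and -0.0738 to 0.0476 for FOXM1. For the mean of both they ran from -0.0062 to 0.2845 for AURKB, -0.3114 to 0.0354 for CENPF, -0.3041 to 0.0603 for TOP2A and -0.0275 to 0.08 for FOXM1. In the direct comparison they ran from -0.192 to 0.0303 for AURKB, -0.1985 to 0.0845 for CDC20, -0.226 to 0.0624 for SPC25 and -0.3613 to 0.0028 for ANLN. The cause of these shifts was not tested. SPC25 has no value with a minimum mean RPKM of 5. Depth limits SPC25 most, at 71 to 203 reads per library.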
